A study of Homo sapiens with 2 samples.

Results

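Laminin chains of the epithelial basement membrane were examined in the human colorectal carcinoma line DLD-1, on every probe set annotated to 1 such gene alone. A probe set is a group of short array probes that together report 1 transcript. The rule named 7 genes, of which LAMA5, LAMB1, LAMB2, LAMB3 and LAMC1 had a listed probe set. LAMA3 and COL17A1, the latter a collagen gene and no laminin chain, had none in the annotation used and are not analysed here. The 5 genes had 7 probe sets, out of 41091 probe sets with 1 gene and 19775 genes on the array.

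In the p53 on cells, stably transfected with wild-type p53 under tet-off control, tetracycline had been withdrawn for 9 h. The p53 off cells were the same transfected line grown in tetracycline, which silences the transgene. DLD-1 cells also have a mutated p53 of their own. Each condition was measured on 1 array, so no test between them is possible, and every ratio describes these 2 arrays. The effects of p53 and of tetracycline withdrawal cannot be told apart, because no withdrawal in cells without the construct was analysed here. The induction of p53 itself was not checked, so the conditions are as labelled.

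Laminins are secreted trimers of an alpha, a beta and a gamma chain that polymerise under epithelial sheets and hold them through integrins and dystroglycan. LAMA5 pairs with LAMB1 or LAMB2 and with LAMC1 to form the widespread laminins of mature basement membranes, those of the gut included. LAMB3 belongs to the laminin that anchors hemidesmosomes, the plaques that tie keratin filaments to the basement membrane.

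The 5 chains differed by less than 2-fold between the arrays on the brightest probe set of each gene, so none was counted as higher or lower. Among all 13915 measured genes 15.3% were higher by 2-fold or more and 13.5% were lower by as much. LAMC1 and LAMB3 had higher signals on the p53 on array, LAMA5 had nearly equal signals, and LAMB2 had a lower one. LAMB1 was higher on its brightest probe set and lower on its other one. The log2 ratios of p53 on over p53 off ran from -0.57 to 0.71, with a median of 0.31, which is the value of LAMB1. The median was 0.054 when each gene stood by the mean of its measured probe sets. All measured genes had a median of 0.0035 and an SD over genes of 1.06, and the 6783 genes at least as bright as the dimmest chain had a median of -0.14. With the p53 on array scaled to spike-in controls instead, the median of the chains was -0.61 and that of all genes -0.80, so all directions are relative to the bulk of genes.

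**Figure D1:**
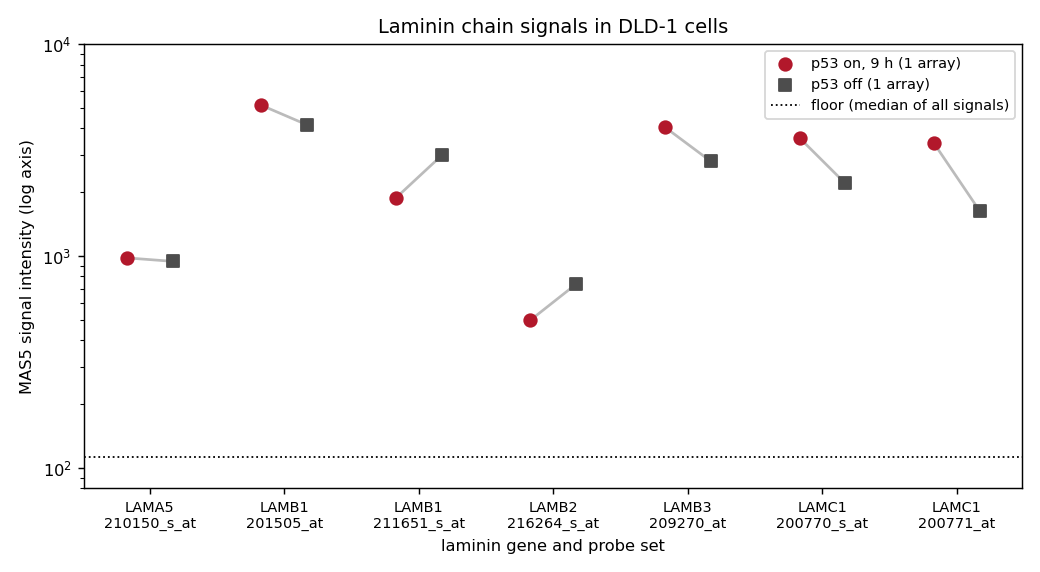
Signals of the 7 laminin probe sets (MAS5 intensity, log axis) on the p53 on array (red circles) and the p53 off array (grey squares), with 1 array per condition and no error bars. All signals lie above the floor of 112.4 (dotted line), and the 2 LAMB1 probe sets slope in opposite directions.

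The signals are MAS5 intensities on a linear scale, already scaled to a common mean by the authors. Signals under a floor of 112.4, the median of all signals that were not controls, were set to it. All 7 laminin probe sets lay above it on both arrays, so no ratio of a chain is a bound. LAMB2 came nearest to it, at 4.43 times the floor with p53 on and 6.56 times with p53 off. The same gene can give several probe sets, and these were the only repeat measurement. Between measured probe sets of 1 gene the log2 ratio varied with a pooled SD of 0.66, a spread that leaves out any variation between cultures.

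The promoters of LAMC1 and LAMB2 are shown because these genes had the highest and the lowest ratio of the 5. Each runs from 250 bases before to 50 after the start in RefSeq, build GRCh38.p14, read 5′ to 3′ on the gene's strand. Capitals mark GC boxes, GGGCGG or its complement CCGCCC.
LAMC1, chr1:183023170-183023469, plus strand: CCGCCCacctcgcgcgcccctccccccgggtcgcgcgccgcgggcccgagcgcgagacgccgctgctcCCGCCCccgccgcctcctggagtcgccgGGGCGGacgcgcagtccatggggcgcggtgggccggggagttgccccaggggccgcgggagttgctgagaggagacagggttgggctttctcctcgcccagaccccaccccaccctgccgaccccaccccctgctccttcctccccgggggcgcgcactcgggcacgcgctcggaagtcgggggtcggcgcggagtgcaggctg
LAMB2, chr3:49133001-49133300, minus strand: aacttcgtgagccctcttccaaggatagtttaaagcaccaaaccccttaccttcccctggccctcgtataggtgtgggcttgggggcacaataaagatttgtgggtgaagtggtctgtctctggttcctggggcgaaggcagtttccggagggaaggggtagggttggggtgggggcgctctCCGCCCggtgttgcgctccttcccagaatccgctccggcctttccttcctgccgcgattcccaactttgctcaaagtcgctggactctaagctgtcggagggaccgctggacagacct

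LAMC1 held 3 GC boxes and LAMB2 held 1, and 44.95% of 35116 promoters of this length held at least 1. The GC content was 79.0% for LAMC1 and 58.7% for LAMB2, against a median of 58.7% over all promoters. Neither window held a match to the AP-1 motif TGANTCA, the TATA box TATAAA, the E-box CANNTG or the 10-base p53 half-site consensus, searched on both strands. Over all promoters, 7.71% held the AP-1 motif, 11.5% the TATA box, 68.7% the E-box and 6.63% the p53 half-site. LAMA5 and LAMB1 also had GC-rich windows, with 5 and 4 GC boxes. LAMB3 had 3 listed starts, and the window of 1 of them held an AP-1 match, tgactca, 67 bases before the start. None of the windows of the 5 genes held the p53 half-site or the TATA box. A match is a run of letters and not a bound site, and its absence covers this window alone.

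LAMC1, the gamma chain that the widespread laminins share, had the highest ratio of the 5 chains. Its probe set 200770_s_at read 3605 with p53 on and 2199 with p53 off, a 1.64-fold higher signal (log2 ratio 0.71). Its other probe set, 200771_at, read 3396 with p53 on and 1628 with p53 off, which is 2.09-fold higher (1.06). This was the only laminin probe set past 2-fold, 1 of 7, where 14.0% of all 25962 measured probe sets were this much higher and 13.0% this much lower. At a size of 1.5-fold, LAMC1 was the only one of the 5 genes counted, as higher, and 25.9% of all measured genes were higher and 25.9% lower. On single probe sets, 2 of the 7 were then higher, both of LAMC1, against 24.6% of all probe sets, and 1 was lower, of LAMB1, against 25.7%. The 2 log2 ratios of LAMC1 lay 0.35 apart, and both were positive. Among 3587 genes with exactly 2 measured probe sets the median gap was 0.58. Of all measured genes, 21.9% had a higher ratio than LAMC1 on its brighter probe set.

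LAMB3, the beta chain of the hemidesmosomal laminin, had a single probe set. It read 4049 with p53 on and 2795 with p53 off, which is 1.45-fold higher (log2 ratio 0.53). This is smaller than the spread of 0.66 between probe sets of 1 gene. A higher ratio was found in 27.6% of measured genes. The alpha chain that LAMB3 pairs with, the product of LAMA3, is not analysed here, so whether the chains of that trimer moved together was not examined.

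LAMB1, the beta chain of the widespread laminins, gave opposite readings on its 2 probe sets. The brighter, 201505_at, read 5137 with p53 on and 4152 with p53 off, 1.24-fold higher (log2 ratio 0.31). The other, 211651_s_at, read 1878 with p53 on and 2980 with p53 off, 1.59-fold lower (-0.67). The gap of 0.97 was larger than in 73.3% of genes with exactly 2 measured probe sets, of which 31.3% had ratios of both signs. The mean of the 2 log2 ratios was -0.18, so LAMB1 has no settled direction in these data.

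LAMB2, a beta chain found in the basement membranes of kidney, muscle and nerve as well as epithelia, was the only chain whose representative probe set had a lower signal with p53 on. It read 498.0 with p53 on and 736.9 with p53 off, 1.48-fold lower (log2 ratio -0.57), which is also within the spread of 0.66. A lower ratio was found in 26.5% of measured genes. LAMA5, the alpha chain of the widespread laminins, read 979.2 with p53 on and 943.0 with p53 off, a ratio of 1.04 (log2 ratio 0.054). A larger ratio in either direction was found in 94.6% of measured genes.

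A further probe set was annotated to both LAMA5 and its antisense gene LAMA5-AS1 and was left out by the rule. It read 19.4 with p53 on, under the floor, and 294.4 with p53 off, which makes it at least 2.62-fold lower. The annotation gives both genes for it, so its signal cannot be assigned to either. A probe set of LAMA5-AS1 alone was under the floor on both arrays, at 19.7 with p53 on and 85.1 with p53 off.

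**Figure D2:**
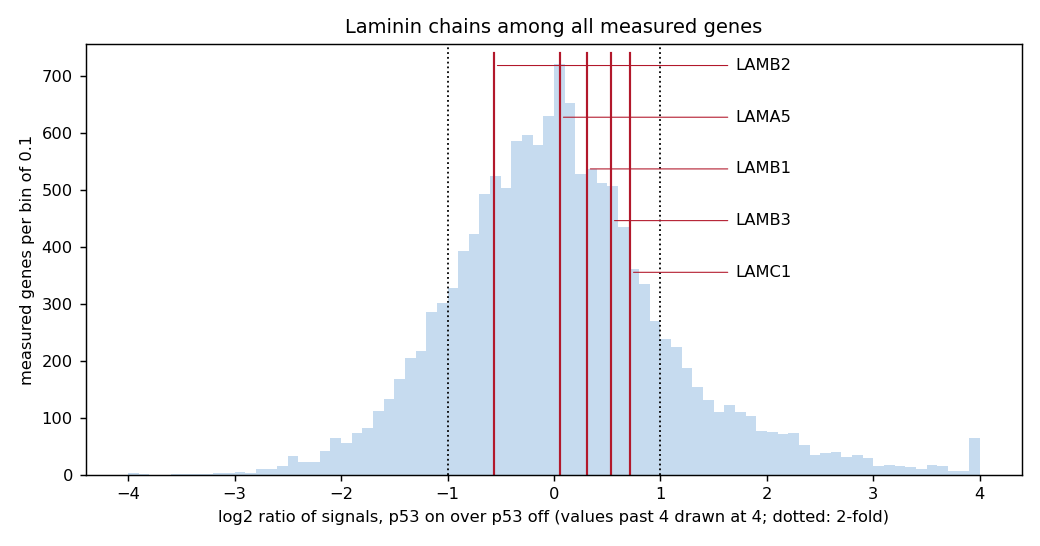
Histogram of log2 signal ratios (p53 on over p53 off) of all 13915 measured genes in bins of 0.1, with the 5 laminin chains as red lines and 2-fold as dotted lines. The chains run from -0.57 (LAMB2) to 0.71 (LAMC1), all inside the dotted lines.

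Differences among the chains can be read without regard to a single scale factor between the arrays, which cancels in the difference between 2 log2 ratios. Such differences can change under quantile normalization and loess. LAMC1 on its brighter probe set stood 1.28 above LAMB2, and LAMB3 stood 1.10 above LAMB2, on the log2 scale. LAMB1 stood 0.87 above LAMB2 on its brighter probe set, 0.39 above it as the mean of its probe sets, and at -0.10 relative to it on its other probe set. LAMC1 and LAMB2 are the highest and the lowest of the 5, so their gap is the largest of 10 by choice. On the brightest probe set of each gene, LAMC1 and LAMB3 were closest to each other, 0.18 apart. LAMC1 was at 1.06 on 200771_at and at 0.89 as the mean of its probe sets, against 0.53 for LAMB3, so this closeness depends on the probe set. With 1 array per condition these differences have no replicate check.

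The arrays differed in controls as well. The beta-actin control read 7.29 times higher at its 3' than at its 5' probe set on the p53 on array, against 1.37 times on the p53 off array, and the GAPDH control 1.77 times against 0.97 times. The 18 probe sets of the hybridization spike-ins, RNAs added in fixed amounts, were brighter on the p53 on array by a median of 1.89 times. Several of these probe sets report the same RNA. Laminin transcripts are long, and where their probes lie along them was not used here. The part of signal loss away from the 3' end in the ratios above, the opposite readings of LAMB1 included, was not tested. With the p53 on array scaled to the spike-ins, 200771_at of LAMC1 alone kept a positive log2 ratio, at 0.14. LAMC1 on 200770_s_at then stood at -0.21, LAMB3 at -0.38, LAMB1 on 201505_at at -0.61, LAMA5 at -0.86, LAMB2 at -1.48 and LAMB1 on 211651_s_at at -1.58.

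**Figure D3:**
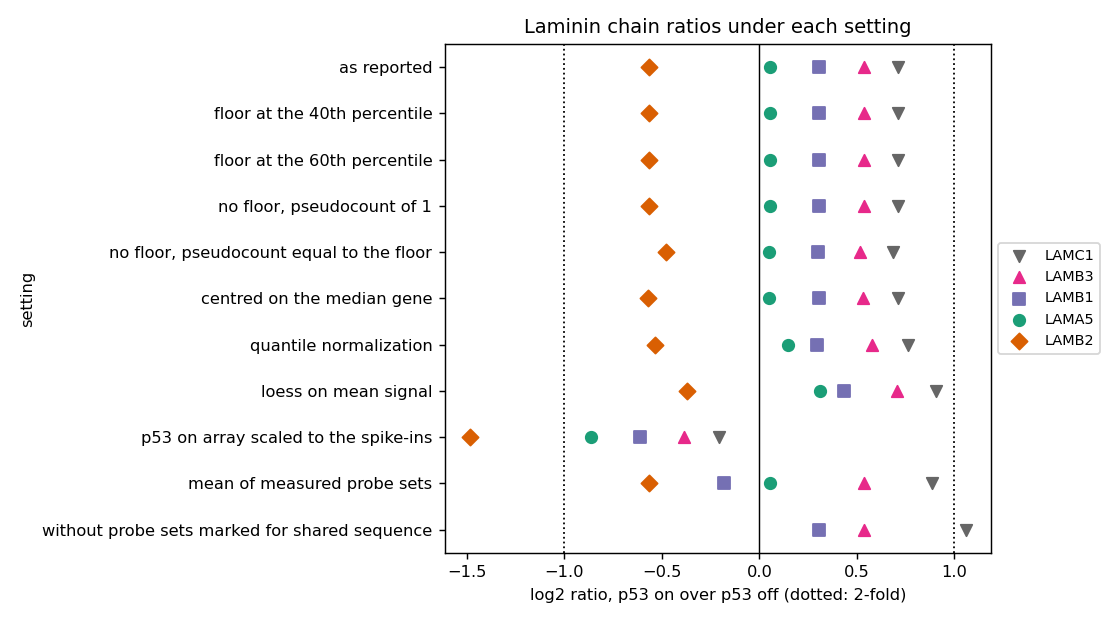
Log2 ratios of the 5 laminin chains (p53 on over p53 off) as reported and under 10 other settings, 1 symbol per chain. The order LAMC1, LAMB3, LAMB1, LAMA5, LAMB2 from high to low holds in all settings drawn except the mean of measured probe sets, where LAMB1 is at -0.18, below LAMA5. LAMA5 and LAMB2 have no symbol where probe sets marked for shared sequence were left out.

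The other laminin chains were dim. LAMA1, LAMA2, LAMA4, LAMB4 and LAMC3 had 16 probe sets, of which 11 were under the floor on both arrays. Their highest signal was 160.4 on the p53 on array and 206.2 on the p53 off array. LAMA2, an alpha chain of muscle, read 160.1 with p53 on and 206.2 with p53 off (log2 ratio -0.36). LAMA4, an alpha chain of vessels, read 130.5 with p53 on and 98.7 with p53 off, at least 1.16-fold higher. LAMC3, a gamma chain, read 21.4 with p53 on and 169.7 with p53 off, at least 1.51-fold lower, a bound set by the floor that was chosen. LAMA1 and LAMB4 were not measured. None of the 3 measured genes was counted as past 2-fold, where 15.3% of all measured genes were higher and 13.5% lower. For LAMA4 and LAMC3, which have bounds alone, a larger difference is possible. LAMC3 had a log2 ratio of -1.17 with the floor at the 40th percentile and -0.0072 with it at the 60th. It was at -2.93 with a pseudocount of 1. With the spike-in scaling LAMA2 was at -1.28 and LAMC3 at -1.06.

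Some genes of the receptors and hemidesmosomes that bind laminins were past 2-fold. Of 10 genes listed, 9 were measured, of which 3 were higher by 2-fold or more and 1 was lower by as much. The shares over all measured genes were 15.3% higher and 13.5% lower. The list had a median log2 ratio of 0.62 (0.052 with the spike-in scaling and 0.033 with the floor at the 60th percentile), beside 0.0035 for all measured genes. The value of 0.62 is that of ITGA7, which was under the floor with p53 off, so it is a bound set by the floor. ITGA6, the integrin alpha subunit that binds laminin in hemidesmosomes, read 18969 with p53 on and 5928 with p53 off, 3.20-fold higher, and its other probe set was 2.18-fold higher. ITGB4, its partner subunit in hemidesmosomes, read 2012 with p53 on and 2265 with p53 off (log2 ratio -0.17). Its other measured probe sets had log2 ratios of -0.083 and, at 286.8 with p53 on and 144.1 with p53 off, 0.99, so its probe sets did not share a direction.

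DST, which includes the hemidesmosomal plakin among its isoforms, read 2570 with p53 on and 842 with p53 off, 3.05-fold higher. Its 6 measured probe sets all had positive log2 ratios, from 0.091 to 2.22. PLEC, the gene of plectin, which links integrin to keratin, read 2439 with p53 on and 861.2 with p53 off and was 2.83-fold higher, with 1.63-fold on its other probe set. CD151, a tetraspanin bound to laminin-binding integrins, was the lower gene, at 1281 with p53 on and 2689 with p53 off, or 2.10-fold lower. It was inside 2-fold after quantile normalization (log2 ratio -0.99) and loess (-0.83), which leaves no gene of the list lower by that size. With the spike-in scaling ITGA6, DST and PLEC stayed positive, at log2 ratios of 0.76, 0.69 and 0.58, and CD151 was at -1.99.

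Among 27 other genes of the basement membrane, 14 were measured and 12 were under the floor on their brightest probe set. Of the 14, 6 were higher by 2-fold or more and none was lower by as much, beside 15.3% and 13.5% of all measured genes. In 5 of the 14, 1 signal was under the floor. Genes that pass the floor on 1 array alone had to differ, and PXDN was the only such gene among the 6 higher ones. The list was chosen with earlier results of these data known, so the count describes it and is no support for a direction. The median log2 ratio was 0.83 (0.25 with the spike-in scaling). PXDN, peroxidasin, which crosslinks type IV collagen, read 560.0 with p53 on and 107.8 with p53 off, at least 4.98-fold higher. NTN4, a netrin that binds laminin gamma chains and disrupts their networks, read 2141 with p53 on and 461.9 with p53 off, 4.63-fold higher.

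COL4A1, a chain of the collagen network next to the laminins, read 1278 with p53 on and 379.6 with p53 off, 3.37-fold higher. Its other probe set was dim, at 141.7 with p53 on and 31.7 with p53 off, at least 1.26-fold higher. COL4A2, of the same list, read 4582 with p53 on and 4047 with p53 off (log2 ratio 0.18). The other measured probe set of COL4A2 had a log2 ratio of -1.06. TINAGL1, a matrix protein of basement membranes, read 2325 with p53 on and 894.7 with p53 off, 2.60-fold higher on its only measured probe set. NID1 and NID2, the nidogens that bridge laminin and collagen, were under the floor on both arrays. With the spike-in scaling the log2 ratios of PXDN, NTN4, COL4A1 and TINAGL1 stayed positive, at 1.46, 1.29, 0.83 and 0.46.

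Of 14 genes of enzymes that process laminins or regulate such enzymes, 10 were measured, with 4 higher by 2-fold or more and none lower by as much. Over all measured genes the shares were 15.3% and 13.5%. The list had a median log2 ratio of 0.49, but of -0.25 with the spike-in scaling. It was -0.29 when probe sets named for shared sequence (_s_at and _x_at) were left out. PLAU and PLAT, the activators of plasminogen, led the list. PLAU read 619.9 with p53 on and 144.9 with p53 off, 4.28-fold higher, and 1.64-fold on its other probe set. PLAT read 416.5 with p53 on and 113.1 with p53 off, 3.68-fold higher from a signal just over the floor. HPN, the membrane protease hepsin, read 467.0 with p53 on and 189.1 with p53 off, 2.47-fold higher. TLL2, of the tolloid proteases, read 234.2 with p53 on and 13.4 with p53 off, at least 2.08-fold higher. Its place past 2-fold was set by the floor, since its log2 ratio was 0.47 with the floor at the 60th percentile. It was also inside 2-fold after quantile normalization (0.98), after loess (0.82) and as the mean of its probe sets (0.69). HPN was inside 2-fold with a pseudocount equal to the floor (0.94). Without probe sets named for shared sequence, PLAU, PLAT and HPN had no value and TLL2 was inside 2-fold (0.70). None of the 4 genes was thus counted as higher in that setting. Under every scaling tried these 4 genes had positive log2 ratios. With the spike-in scaling PLAU was at 1.18, PLAT at 0.96, TLL2 at 0.61 and HPN at 0.39, so of these only PLAU stayed past 2-fold.

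**Figure D4:**
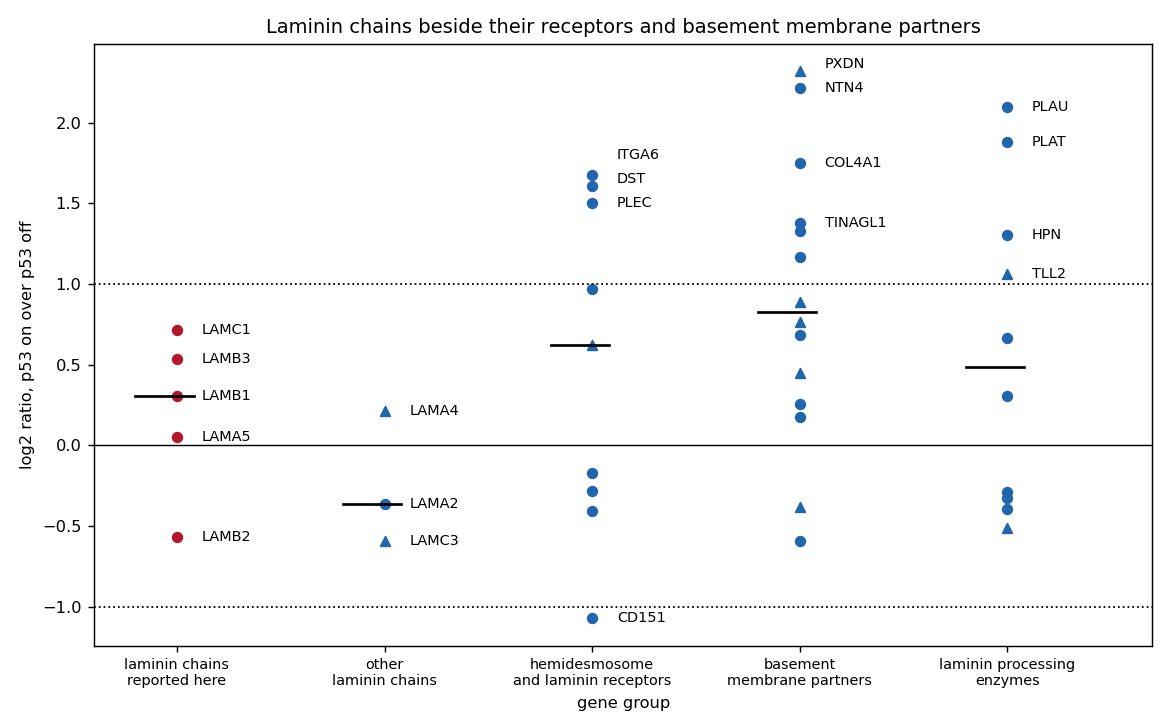
Log2 ratios (p53 on over p53 off) of measured genes in 5 groups, 1 symbol per gene on its brightest probe set, triangles where 1 signal was under the floor and black bars for group medians. The 5 laminin chains lie inside the dotted 2-fold lines, while ITGA6, DST, PLEC, PXDN, NTN4, COL4A1 and PLAU lie above them and CD151 lies below.

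Markers of epithelial and of other cell types were read as lists, each gene on its brightest probe set. In their sums, any signal below the floor counts as the floor. Of 12 epithelial markers, 10 were above the floor on both arrays, and the list summed to 175540 with p53 on and 111632 with p53 off. The other 2, KRT20 and CDX1, markers of intestinal differentiation, were under it. Of 8 fibroblast markers, 4 were above the floor with p53 on and 2 with p53 off, and the list summed to 1159 with p53 on and 1033 with p53 off. Of 7 endothelial markers, 4 were above it with p53 on and 2 with p53 off, with sums of 1027 with p53 on and 842.1 with p53 off. Of 7 leukocyte markers with a probe set, 4 were above it with p53 on and 2 with p53 off, with sums of 1247 with p53 on and 1004 with p53 off.

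Some markers of other cell types were thus above the floor. CD3D and CD79A of the leukocyte list were above it on both arrays, and so was THY1 of the fibroblast list, while PTPRC, COL1A1 and COL3A1 were under it on both. Of 5 smooth muscle markers, 3 were above it with p53 on and 4 with p53 off, and they summed to 1942 with p53 on and 1136 with p53 off. ACTA2 read 1145 with p53 on and 521.5 with p53 off, and TAGLN 424.0 with p53 on and 185.4 with p53 off. The 3 measured probe sets of TAGLN had log2 ratios from -0.86 to 1.19. MYH11 read 147.3 with p53 on and 182.8 with p53 off, and DES 101.8 with p53 on and 134.0 with p53 off. CNN1 was under the floor on both arrays. Of 4 basal keratinocyte markers with a probe set, 2 were above it with p53 on and 1 with p53 off. They summed to 1748 with p53 on and 454.8 with p53 off, a difference that came almost wholly from KRT15. KRT15 read 1401 with p53 on and 117.7 with p53 off, and DSG3 read 121.9 with p53 on and 91.1 with p53 off. KRT5 and KRT14 were under the floor on both arrays. The part of other cell types in the laminin ratios was not tested. In RNA from a whole culture, fewer cells of a type and less RNA per cell cannot be told apart.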

How the data were processed

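Total RNA of DLD-1 cells, prepared with Trizol per the labels' protocols, was measured on Affymetrix arrays, 1 per condition. The authors deposited 1 linear signal intensity for each probe set, which MAS5 produced according to the submitters' processing notes. Software version and detection calls are not stated there. The mean signal without the lowest and highest 2% was near equal on both arrays (497.8 and 498.2), as 1 scale factor per array would give. Precision is limited by 1 array per condition.

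Names came from GEO's annotation of the platform, and Entrez identifiers gave the current RefSeq symbol for 41037 of the 41091 probe sets with 1 gene. A further 1801 had several genes and 11721 are unnamed here. Signals under the median of all signals were set to that floor. A gene with 1 signal under it has a ratio that is a bound, and a gene with both under it was not measured. Each gene stands by its brightest probe set, by mean signal over both arrays, and all probe sets of the chains are given. Python 3.11.15, numpy 2.4.6, pandas 2.3.3 and statsmodels 0.14.6 were used. The ratio step was tested on simulated data.

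From each gene list the 4 measured genes with the largest absolute log2 ratio are named. ITGB4, ITGA7, COL4A2, NID1, NID2 and the single marker genes named were added after their values were seen. The marker lists are given by counts and sums. The members and lists were chosen with earlier results of these data known. Promoters come from RefSeq (GRCh38.p14), and coordinates are printed for these promoters alone. Other settings tried were other floors, pseudocounts, centring, quantile, loess (span 0.3) and spike-in scaling, other choices of probe set, and a 1.5-fold size.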

Additional observations from a re-analysis of the deposited data

Results flagged for a closer look

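Control probe sets, used for the chains only in the spike-in scaling, differed between the arrays. The 3' signal of the beta-actin control was 7.29 times its 5' signal on the p53 on array, against 1.37 times on the p53 off array. For GAPDH the ratio was 1.77 on the p53 on array and 0.97 on the p53 off array. The median ratio of the 18 spike-in probe sets, p53 on over p53 off, was 1.89, and their ratios ran from 1.47 to 2.59.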

How the results depend on the processing

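The 5 chains stayed inside 2-fold on their brightest probe set under both other floors, both pseudocounts, centring, quantile normalization and loess, and with the mean of measured probe sets. Over these settings and the one without probe sets marked for shared sequence, LAMC1 ran from 0.69 to 1.06, LAMB3 from 0.52 to 0.71, LAMB2 from -0.57 to -0.37 and LAMA5 from 0.049 to 0.31. LAMB1 ran from -0.18 to 0.43, the lowest being the mean of its probe sets. The median of the chains ran from 0.054 to 0.53. A value was taken as moved when it shifted by more than the spread of 0.66 between probe sets of 1 gene.

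Scaling to the spike-ins moved the median of the chains to -0.61, that of the other laminin chains to -1.06 and that of the processing enzymes to -0.25. At 2-fold the counts then were 0 laminin probe sets higher, 2 lower, and 1 gene lower, LAMB2. The median of all measured genes was then -0.80. The share of all genes past 2-fold under this scaling was not computed, so these counts are no result about the chains. By construction the spike-in scaling lowers every log2 ratio above the floor by 0.92. Without probe sets marked for shared sequence 3 chains on 3 probe sets were left, LAMC1 was past 2-fold (1 gene), and the processing enzymes had a median of -0.29. That setting leaves fewer genes, and the share of all genes past 2-fold under it was not computed. At 1.5-fold, 1 gene (LAMC1) and 2 probe sets were higher, both of LAMC1, and 1 probe set was lower, of LAMB1. No paired analysis was possible because each condition has 1 array. With 1 array per condition no replicate could be left out either. Dim signals limit the other laminin chains, of which 11 of 16 probe sets were under the floor.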

Other observations

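CDX2, a transcription factor of the intestine, read 461.3 with p53 on and 689.7 with p53 off, and KRT15, a keratin of basal cells, 1401 with p53 on and 117.7 with p53 off, 11.9-fold higher. KRT5 and KRT14, keratins of basal keratinocytes in which LAMB3 is abundant, were under the floor on both arrays. ITGB1, the integrin beta subunit that many laminin receptors share, read 9298 with p53 on and 11324 with p53 off (log2 ratio -0.28). Another of its 3 measured probe sets had a log2 ratio of -1.39. These genes were chosen after their values were seen.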
